A study of Homo sapiens with 4 samples.

Results

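HERPUD1 encodes an endoplasmic reticulum (ER) membrane protein with a ubiquitin-like domain, and the account below follows open chromatin at its promoter and in the 100 kb on each side of the gene. The gene lies on the plus strand of chromosome 16 from 56965748 to 56977793 (hg19). Its members are the accessible peaks whose midpoint lay between 56865748 and 57077793, and a peak within 2 kb of 56965748 counted as the promoter. This window held 38 of the 234140 peaks listed in 4 libraries, and they merged into 16 of 78788 regions wherever peaks shared at least 1 bp. The locus was picked because its promoter peak was weaker after tunicamycin in these same lists, so the values of that peak are given as a description and without a test.

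The libraries came from HCT116, an established human colorectal cancer line, here with the wild-type genotype, and each was made from 50000 cells by ATAC-seq. In this assay a transposase cuts accessible DNA and inserts sequencing adapters, so a peak marks open chromatin. One group of 2 libraries received 0.5 µg/ml tunicamycin for 6 h, and the control group of 2 libraries received 0.1% DMSO, the solvent, for 6 h. The series calls the libraries of a group biological replicates. Genes elsewhere in the genome were not assigned to peaks, because no hg19 gene table was used here, so the identity of the cell line was not checked through its marker genes.

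Tunicamycin blocks the first step of N-glycosylation, and glycoproteins then misfold in the ER. The ER answers with the unfolded protein response, in which the sensors ATF6, IRE1 (acting through XBP1) and PERK (acting through ATF4) raise transcription of chaperones and of genes for ER-associated degradation. HERPUD1 is a classical target of that response. Its protein sits in the complex around the ubiquitin ligase HRD1 (gene SYVN1), which passes misfolded proteins to the proteasome.

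The promoter sequence of HERPUD1 holds matches to some, but not all, of the elements searched here. The 250 bases before the RefSeq start of the gene (GRCh38.p14, chr16:56931892-56932141, plus strand) are printed 5′ to 3′, with 4 matches in capitals.
HERPUD1 upstream: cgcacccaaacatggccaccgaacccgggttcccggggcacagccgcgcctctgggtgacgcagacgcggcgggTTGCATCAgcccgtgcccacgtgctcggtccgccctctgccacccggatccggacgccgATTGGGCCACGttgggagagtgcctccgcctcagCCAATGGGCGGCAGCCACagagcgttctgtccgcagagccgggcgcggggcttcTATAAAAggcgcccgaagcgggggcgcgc
In the order printed, the capitals mark the C/EBP-ATF composite element (TGATGCAA, here on the opposite strand as TTGCATCA), the ER stress response element II (ERSE-II, ATTGG and CCACG with any 1 base between them), a match to the ER stress response element without its last base (CCAAT and CCAC with any 9 bases between them) and a TATA box (TATAAAA). C/EBP-ATF elements are bound by ATF4 with C/EBP factors, and ERSE elements by ATF6 or XBP1 with the CCAAT-binding factor NF-Y. Counted back from the start, the composite element began 176 bases upstream, ERSE-II 117 bases, the partial ERSE 83 bases and the TATA box 29 bases. These motifs were searched on both strands, and ERSE-II and the partial ERSE did not overlap. The core of the unfolded protein response element (TGACGTGG) and the cyclic AMP response element (TGACGTCA) were searched too, and HERPUD1 had no match to either.

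ERSE-II is rare among promoters. It was found in 19 of 35116 RefSeq promoter windows of 300 bases (0.0541%), against 0.866% for the composite element, 0.316% for the partial ERSE and 4.52% for the TATA box. Of 34 ER stress genes with a promoter in the table, out of 38 listed, 2 held an ERSE-II besides HERPUD1, which was not on the list. They are HYOU1 and SDF2L1, an ER chaperone of the Hsp70 family and a cofactor of ER chaperones. The complete ERSE (CCAAT and CCACG with any 9 bases between them) was found in 7 of the 34 (20.6%) and in 0.0769% of all windows, and HERPUD1 had no match to it. Shares of the 34 count genes, a gene counting if any of its windows matched, while shares of all windows count windows. Of the other elements marked in HERPUD1, the composite element was found in 0 of the 34, the partial ERSE in 8 (23.5%) and the TATA box in 2 (5.88%). The partial pattern also matches every complete ERSE, so its counts include the complete ones. Its 8 genes are the 7 with a complete ERSE and DDIT3, which alone had the partial match without the complete one. The sites are set side by side here on the strand of the motif, with 10 flanking bases in lower case, because they show how the HERPUD1 elements compare with those of other ER stress genes.
HERPUD1 ERSE-II: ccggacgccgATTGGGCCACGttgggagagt
HYOU1 ERSE-II, distal: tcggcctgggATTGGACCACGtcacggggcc
HYOU1 ERSE-II, proximal: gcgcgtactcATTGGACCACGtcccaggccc
SDF2L1 ERSE-II: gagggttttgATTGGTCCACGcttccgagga
HERPUD1 partial ERSE: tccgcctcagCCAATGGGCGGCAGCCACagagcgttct
HSPA5 ERSE: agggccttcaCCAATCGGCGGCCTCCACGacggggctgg
HSPA5 is the gene of the major ER chaperone BiP. The HERPUD1 partial ERSE and the HSPA5 site both hold CCAAT and CCAC at the same spacing, which the search fixed in advance. A match is a description of letters and does not show a bound factor. The gene list and the motifs were chosen with earlier results of these data, or the sequence, known. The match in HERPUD1 and the shares among ER stress genes are therefore not a test. The sequence belongs to GRCh38.p14 and the peaks to hg19, and the builds were not aligned. The RefSeq start and the hg19 start at 56965748 may therefore be different bases, and no distance between a motif and a summit is given.

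The 4 lists were of similar depth, and the tunicamycin replicate 2 list was the longest. They held 56581 and 56566 peaks after DMSO and 58467 and 62526 after tunicamycin. Read totals were not used here. From the authors' fold and −log10 p-value of each peak, the pileup at the summit and the local background were recovered as described with the processing. The pileup counts overlapping fragments at the summit, and the local background is the pileup per position around the peak. The lowest background of a list, which moves with depth, was 0.140 and 0.147 after DMSO and 0.140 and 0.143 after tunicamycin. Over the 40447 regions with a peak in all 4 libraries, called common regions here, the median summit pileup was 18 and 19 after DMSO and 19 and 21 after tunicamycin. Intervals given for pileups are exact 95% Poisson intervals and cover counting error only.

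The HERPUD1 promoter was strongly open in control cells and carried a lower, wider peak after tunicamycin. The summit pileup was 42 in DMSO replicate 1 (95% interval 30.3 to 56.8) and 50 in DMSO replicate 2 (37.1 to 65.9). It was 22 in tunicamycin replicate 1 (13.8 to 33.3) and 30 in tunicamycin replicate 2 (20.2 to 42.8). Both tunicamycin values lay below both DMSO values, although the interval of each tunicamycin library overlapped that of DMSO replicate 1, and that of tunicamycin replicate 2 overlapped both. The means were 46.0 ± 5.66 (SD, n = 2) and 26.0 ± 5.66 (SD, n = 2), a ratio of 0.565. Across all common regions the median pileup was slightly higher after tunicamycin, by 0.13 on the log2 scale, and 127 regions (0.314%), HERPUD1 included, had a ratio as low.

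The local background at the promoter was similar in the 4 libraries. It was 1.24 and 1.38 after DMSO and 1.19 and 1.41 after tunicamycin, so the groups overlapped and the ratio of the means was 0.997. The lower fold of the promoter peak, 10.5 and 12.8 after tunicamycin against 19.2 and 21.4 after DMSO (the authors' own values per peak, as are all folds and −log10 values here), thus came with a lower summit and not with a higher background.

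In rank, the promoter peak moved from the top of the lists to their middle. By the caller's q-value it stood at the 93.7th and 96.4th percentile of the DMSO lists and at the 57.0th and 71.4th percentile of the tunicamycin lists. Among the common regions alone the percentiles were 91.3 and 95.0 after DMSO and 41.9 and 57.5 after tunicamycin. As normal scores, in which the ranks of the common regions are spread over a standard normal curve, the mean was 1.50 after DMSO and -0.0085 after tunicamycin, a difference of -1.51. This is the difference for which the locus was chosen. In a limma fit over all 40447 common regions 21 were called at an adjusted p under 0.05 (0.0519%), 7 lower (0.0173%) and 14 higher (0.0346%) after tunicamycin, and nothing about HERPUD1 is read from these shares. The balance rested on single libraries: the fit called 0 higher and 5 lower without tunicamycin replicate 1, 1 higher and 11 lower without tunicamycin replicate 2, 23 higher and 6 lower without DMSO replicate 1, and 28 higher and 2 lower without DMSO replicate 2.

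**Figure D1:**
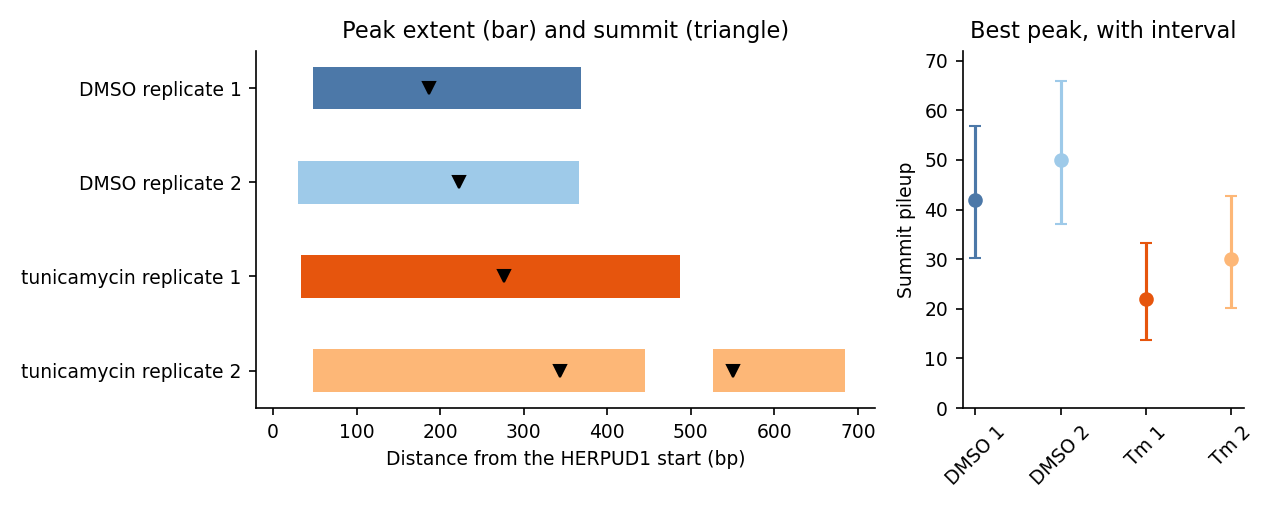
Promoter peaks of HERPUD1 in the 4 libraries: on the left each bar is the extent of a peak and each triangle its summit, in bp from the hg19 start of the gene, and on the right the points are the summit pileup of the best peak per library with exact 95% Poisson intervals (Tm, tunicamycin). The left edges lie within 18 bp of each other, the right edges of the tunicamycin peaks reach 444 and 486 bp against 365 and 368 bp after DMSO, and both tunicamycin pileups (22 and 30) lie below both DMSO pileups (42 and 50).

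The shape of the promoter peak differed as well as its height. The peak was 321 and 336 bp wide after DMSO and 454 and 397 bp wide after tunicamycin. Both tunicamycin widths exceeded both DMSO widths, and the means were 328.5 ± 10.6 bp (SD, n = 2) and 425.5 ± 40.3 bp (SD, n = 2). All of the added width lay on the right side of the peak, the direction in which the gene is read. The left edge was 48 and 30 bp past the start after DMSO and 33 and 48 bp after tunicamycin, while the right edge was 368 and 365 bp past it after DMSO and 486 and 444 bp after tunicamycin. The mean right edge thus lay 98.5 bp further to the right and the mean left edge 1.5 bp further. These distances run from the hg19 start at 56965748. Whether the edges and summits lie before or past the RefSeq start was not determined, because the builds were not aligned.

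The summit also lay further to the right after tunicamycin, in the direction in which the gene is read. It was 187 and 223 bp past the start in the DMSO libraries and 276 and 344 bp past it in the tunicamycin libraries. The groups did not overlap, but how many common regions had summits separated in this way was not counted. The means differed by 105 bp, whereas replicates differed by 36 bp after DMSO and by 68 bp after tunicamycin. Tunicamycin replicate 2 listed a second promoter peak, 158 bp wide, from 526 to 683 bp past the start with a pileup of 12 (95% interval 6.2 to 21.0), and no other library listed a peak there. The second promoter peak of that library was far weaker than the first, at percentile 9.98 of its list.

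A lower summit and a wider peak were also counted together among common regions. Both tunicamycin pileups lay below both DMSO pileups in 2968 common regions (7.34%), and both tunicamycin widths lay above both DMSO widths in 8074 (20%). The combination was present in 446 (1.1%), HERPUD1 among them. Given those single shares, a low share for the combination would arise even if height and width were unrelated. A widening of at least the 97.0 bp of HERPUD1 was seen in 892 common regions (2.21%), and a summit displacement of at least 105 bp in either direction in 1.98%. Since the locus was chosen on this contrast, these shares place the promoter among the other regions and are not a test.

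Within 2 kb of the start there were only these promoter peaks. The nearest peaks outside that limit were 2 weak ones in tunicamycin replicate 1 alone. One lay 7.43 kb past the start, inside the gene, with a pileup of 8 and a width of 104 bp, and the other lay 10.9 kb before it with a pileup of 5 and a width of 104 bp.

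Outside the promoter, the lists differed just downstream of the gene. Past the end of HERPUD1, the DMSO lists held 1 strong peak at 56985267 to 56985490, centred 7.59 kb beyond the annotated end, and nothing between it and the promoter. Both tunicamycin lists held that same peak and, in addition, weak peaks nearer to the gene. In a merged region at 56980930 to 56981150, 3.25 kb past the end, the peak was 221 bp wide in tunicamycin replicate 1 and 138 bp wide in replicate 2, each with a pileup of 12 (95% interval 6.2 to 21.0). The −log10 q-values there were 3.96 in tunicamycin replicate 1 and 3.25 in replicate 2, at percentiles 4.21 and 1.63 of their lists. Tunicamycin replicate 2 listed another peak close by, 3.55 kb past the end, with a pileup of 16. Neither DMSO library listed a peak at these places, which means that none passed the caller there, not that no fragments were present.

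The local background was about 3-fold higher after tunicamycin at the downstream peak listed in all 4 libraries. At that region, 56985267 to 56985490, it was 0.564 in DMSO replicate 1, 0.572 in DMSO replicate 2, 1.67 in tunicamycin replicate 1 and 1.96 in tunicamycin replicate 2. The groups did not overlap, and the means were 0.568 ± 0.00591 (SD, n = 2) and 1.81 ± 0.204 (SD, n = 2), a ratio of 3.19. At the weak peaks nearer to the gene the background was 2.06 in tunicamycin replicate 1 and 2.44 and 2.41 in replicate 2, and no DMSO value exists there. Inside the gene, 7.43 kb past the start, it was 0.895 in tunicamycin replicate 1. The stretch over which the caller averaged is not given in the sources used here, and neighbouring peaks can share part of it.

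**Figure D2:**
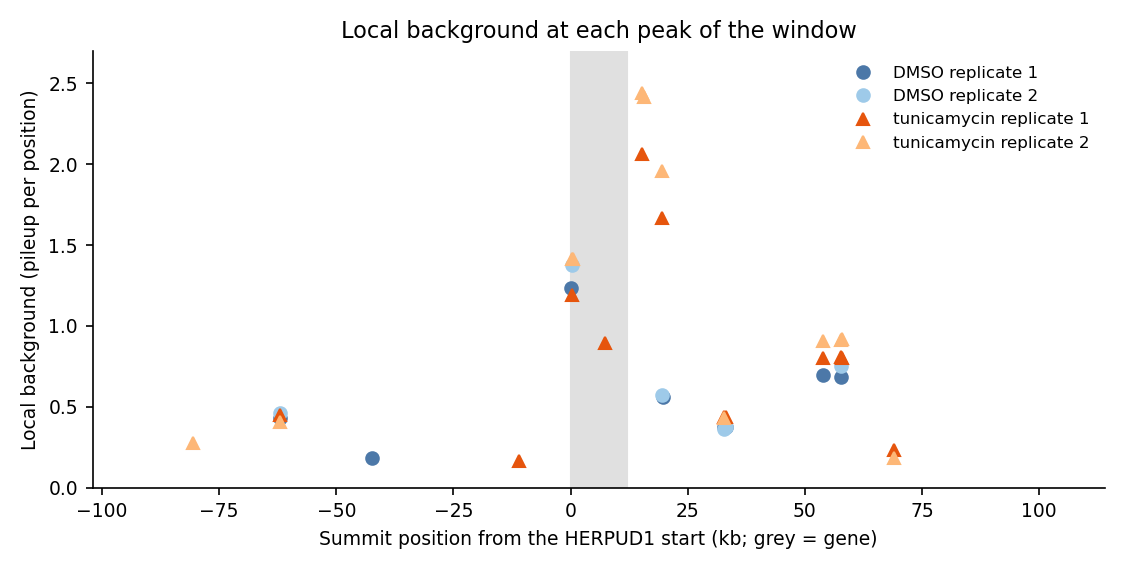
Local background (pileup per position) at every peak of the window against the position of its summit in kb from the HERPUD1 start; circles are DMSO libraries, triangles tunicamycin libraries, and the grey band is the gene. At the peaks centred 3.24 to 7.59 kb past the end of the gene the tunicamycin values are 1.67 to 2.44 and the DMSO values, at the farthest of these peaks only, 0.564 and 0.572, and at the promoter the 4 libraries lie between 1.19 and 1.41.

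To place this difference, log2 of the local background was compared with limma over the 37893 common regions that lay above the lowest background of their list in all 4 libraries, an analysis added after the values had been seen. The downstream region rose by 1.60 ± 0.106 (SE) on the log2 scale, in 2 of 2 tunicamycin libraries (limma adjusted p = 7.96e-48), and 1 other region had a larger change. It was singled out as the region with the largest such change among the 4 common neighbours of the promoter. Its p-value thus gives its place in the fit and is not independent support. In this fit 703 regions were called (1.86%), 332 higher (0.876%) and 371 lower (0.979%), and without centring on the library medians, which differed by 0.065 between the groups, the calls were 193 higher and 54 lower. Left out in turn, DMSO replicates 1 and 2 and tunicamycin replicates 1 and 2 left 340, 300, 328 and 276 calls, and the downstream region was called each time, with changes of 1.55 to 1.66. The p-value borrows its spread from all regions, of which neighbours share a background, and 2 libraries a group stand behind it.

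The summit of the downstream region did not separate the groups. Its pileup was 39 (95% interval 27.7 to 53.3) and 37 (26.1 to 51.0) after DMSO and 29 (19.4 to 41.6) and 38 (26.9 to 52.2) after tunicamycin, so the groups overlapped. Widths and summits overlapped too, with widths of 203 and 219 bp against 196 and 211 bp and mean summits 10 bp apart. Its rank among common regions was nevertheless lower in both tunicamycin libraries, at the 57.0th and 69.2nd percentile against the 95.1st and 93.0th. The change in normal score of -1.23 ± 0.294 (SE) did not pass the test over all common regions (limma adjusted p = 0.104), and with the replicate number as a block it did (limma adjusted p = 0.0463). Ranked by fold instead of q-value, the change was -1.96 (limma adjusted p = 0.0630). Ranked by summit pileup, a choice made after the data had been seen, the change was -0.40 (limma adjusted p = 0.745), and adjusted p-values ran from 0.0463 to 0.745 over the alternatives run. By construction the −log10 q-value is lower where the background is higher under an equal summit. The ratio of background was 3.19 here against 0.997 at the promoter, and that of mean pileup was 0.882 against 0.565. What each contributed to the ranks was not tested.

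**Figure D3:**
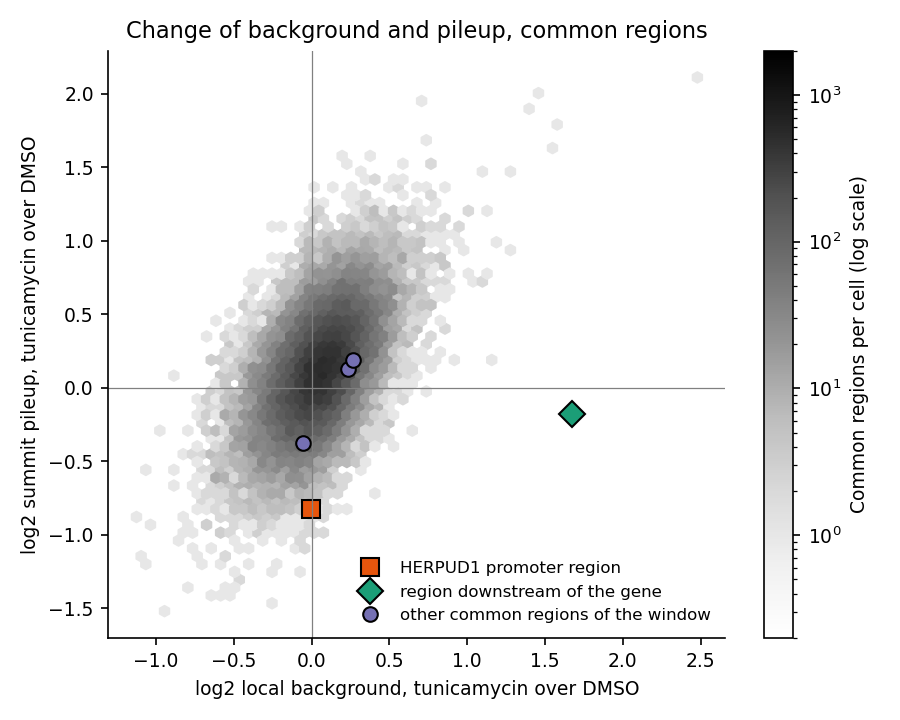
Change of local background (x axis) and of summit pileup (y axis), both as log2 of the mean of the tunicamycin libraries over that of the DMSO libraries, for 40447 common regions shown as shaded cells, with the 5 common regions of the window marked. The promoter region lies at -0.00493 on x and -0.82 on y, and the downstream region at 1.67 on x and -0.18 on y.

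The other 3 common regions of the window did not pass the rank test either. The region at 56903561 to 56903778, 62.1 kb before the start, had pileups of 17 and 18 after DMSO and 12 and 15 after tunicamycin. Its percentiles were 49.6 and 51.9 against 18.8 and 29.8, and they did not overlap, but the change of -0.73 ± 0.410 (SE) did not pass the test (limma adjusted p = 0.740). At 56998480 to 56998646, 32.8 kb past the start, pileups were 15 and 17 after DMSO and 15 and 20 after tunicamycin. At 57023302 to 57023538, 57.7 kb past the start, they were 15 and 14 against 15 and 18. Ranks of the last 2 regions overlapped between the groups, with score changes of -0.092 ± 0.385 (SE) and -0.029 ± 0.455 (SE). Of the 4 neighbours listed in all libraries, 2 thus had both tunicamycin ranks below both DMSO ranks, as did 18.3% of all common regions, and none passed the limma test, with 1 at an unadjusted p under 0.05, as were 2965 of all common regions (7.33%).

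Regions listed after tunicamycin only were the third feature of the window. Of its 16 regions, 5 were listed in all 4 libraries, 3 in both tunicamycin libraries and neither DMSO library, 0 in both DMSO libraries only, 2 in 3 libraries and 6 in 1 library. Over the whole series these patterns made up 51.3%, 3.65%, 1.86%, 12.8% and 22.3% of regions, and the tunicamycin-only pattern made up 18.8% of the window. With 3 regions this is a count without a test, and it was 1 at a −log10 q of at least 5 and also 1 with lists cut to equal length. The DMSO-only count was 1 without DMSO replicate 2 and 1 without tunicamycin replicate 1. Of the 3, the region 3.25 kb past the end of the gene reached a −log10 q of 5 in neither tunicamycin library. The others were 57023618 to 57023770, where pileups were 11 and 9, and 57034585 to 57034750, where they were 10 and 6. The former lay 57.9 kb past the start, next to a common region, and the latter about 68.9 kb past it.

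**Figure D4:**
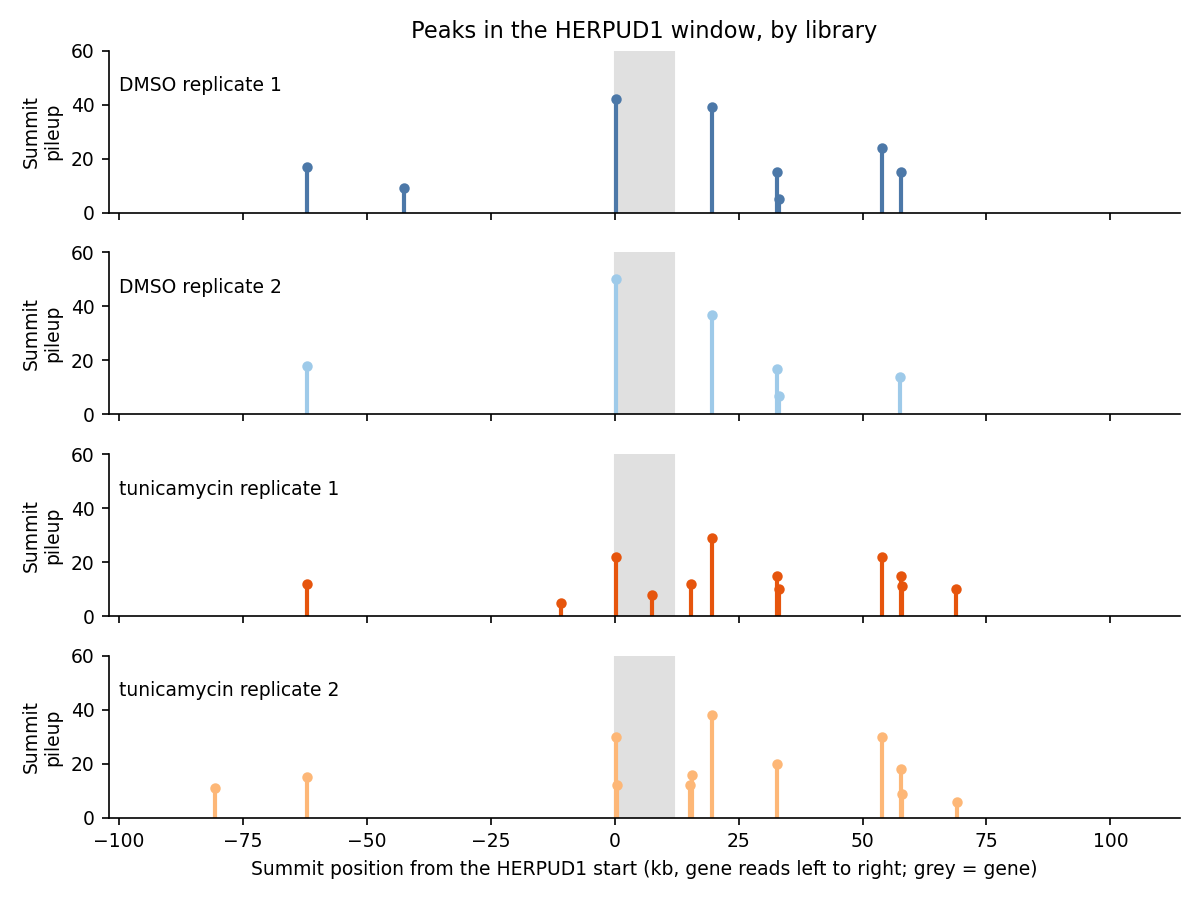
Peaks of the HERPUD1 window in each library, drawn as stems at the summit position in kb from the start of the gene with height equal to the summit pileup; the grey band is the gene. The DMSO libraries list 8 and 6 peaks and the tunicamycin libraries 12 and 12, and the peaks just past the end of the gene at 15.3 and 15.6 kb appear in the tunicamycin libraries only.

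Peaks covered 1420 and 1219 bp of the window after DMSO and 2137 and 2098 bp after tunicamycin. The tunicamycin lists were also longer over the whole series, and covered bases were not computed for other windows, so nothing about the locus is read from this. The 2 regions listed in 3 libraries showed no common direction. The one at 57019587 to 57019746 had a pileup of 24 in DMSO replicate 1, 22 in tunicamycin replicate 1 and 30 in tunicamycin replicate 2, and no peak was listed in DMSO replicate 2. The one at 56998900 to 56999050 had pileups of 5 and 7 after DMSO and 10 in tunicamycin replicate 1. The outermost peaks inside the window were 1 of pileup 11 in tunicamycin replicate 2, 80.7 kb before the start, and the tunicamycin pair 68.9 kb past it. The first peaks outside lay 7.33 and 7.34 kb beyond the left limit, with pileups of 13 and 17 after DMSO and 13 and 15 after tunicamycin, and 2.09 to 2.12 kb beyond the right limit, with pileups of 15 and 18 against 23 and 20.

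In RefSeq's gene order the protein-coding neighbours of HERPUD1 are NUP93 and SLC12A3 on the side before its start, and CETP and NLRC5 on the side past its end. NUP93 encodes a nuclear pore protein, SLC12A3 the thiazide-sensitive sodium chloride cotransporter of the kidney, CETP the plasma cholesteryl ester transfer protein and NLRC5 an activator of MHC class I genes. The regions of the window were not assigned to these genes, because the table is on GRCh38.p14.

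The common regions whose 4 normal scores were most like those of the HERPUD1 promoter, by Euclidean distance, were on chromosomes 1, 16 and 17. The nearest, on chromosome 1 at 165567266 to 165567623 (distance 0.539), had pileups of 39 and 45 after DMSO and 26 and 27 after tunicamycin. Its peak was also wider after tunicamycin, at 356 and 289 bp against 264 and 258 bp. The next, on chromosome 16 at 4452726 to 4452905 (distance 0.583), had peaks of 162 and 175 bp after DMSO and 145 and 133 bp after tunicamycin, and the third, on chromosome 17 at 14109236 to 14109628 (distance 0.590), had peaks of 366 and 338 bp against 310 and 302 bp. These regions shared the order of ranks with HERPUD1 by selection, and 1 of the 3 shared its widening.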

How the data were processed

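Peak lists from ATAC-seq of 2 DMSO and 2 tunicamycin libraries were analysed. Per the submitters' processing notes, the tools were MACS2 2.2.7.1, Bowtie2 2.3.5.1, deepTools, Picard 2.18.23, Trim Galore and SAMtools, and the build was hg19. No source used here gives the peak-calling settings, filters or any shift for the transposase. The authors deposited, per peak, a score, a fold (a ratio of summit pileup to local background, each plus 1), −log10 p- and q-values and a summit. For 100% of peaks a whole-number pileup and a background gave the deposited fold and matched its −log10 p-value within 0.001, and in the window the pileup was unique.

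Libraries were grouped by title. The best peak by q-value stood for a library in a merged region (Python 3.11.15, pandas 2.3.3, scipy 1.17.1). Ranks over common regions became normal scores, compared with limma 3.58.1 (R 4.3.3, trend, Benjamini-Hochberg adjustment at 0.05). Local backgrounds were compared likewise on the log2 scale, centred on each library's median, for regions more than 5% above the lowest background in every list. An exact permutation test of 2 against 2 libraries cannot go below p = 0.333 and was not used. Named by rule were all common or group-specific regions of the window and the 3 most like the promoter, and other regions were added for completeness. The steps were tested on simulated data. The members, the gene list and the motifs were chosen with earlier results of these data, or the sequence, known. ER stress gene promoters were not compared, since that needs gene starts on hg19.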

Additional observations from a re-analysis of the deposited data

How the results depend on the processing

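The difference of the promoter in normal score kept its sign in every alternative run, which is no support, since the locus was chosen on it. Both tunicamycin ranks lay below both DMSO ranks, so leaving out 1 library could hardly reverse the sign. The size of the difference was -1.21 when ranked by summit pileup, against -1.51, and -1.68 to -1.28 with 1 library left out. The number of regions called in rank over all common regions, 21, was 35 with the replicate block, 0 without limma's trend (2821 at an unadjusted p under 0.05), 0 when ranked by fold (2829) and 5 to 30 with 1 library left out. The lone library of a group is then assumed to vary like the others. The deviations of same-numbered libraries correlated at 0.0111. With 2 libraries a group this cannot settle whether the replicate numbers pair the libraries, and the titles do not say. Of the ranks of the 4 neighbours and the background of the downstream region, the block changed only the call of the downstream region's rank. Tunicamycin-only regions of the window numbered 1 at a −log10 q of at least 5, 1 with lists of equal length and 3 to 6 with 1 library left out, where 1 list then stands for a group. The rank change of the region at 56998480 had no stable sign, at -0.30 to 0.12 with 1 library left out, nor had that at 57023302, at 0.051 when ranked by pileup and -0.16 to 0.091 with 1 library left out. Background calls, 703, were 247 without centring and 276 to 340 with 1 library left out. The cause of these shifts was not tested, and the background was not fitted without limma's trend. Pileups of 5 to 50 limit every comparison in the window. The alternatives for ER stress gene promoters were not run.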

Other observations

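Among common regions, the 12 largest called rises of local background, in the fit added after the data had been seen, lay on chromosomes 1, 5, 9, 11, 15, 16, 17, 19 and 20 (hg19). The largest was on chromosome 9 at 127997113 to 127997974, where the background was 0.607 and 0.493 after DMSO and 2.99 and 3.14 after tunicamycin, and the summit pileup was 12 and 7 against 43 and 39. The region downstream of HERPUD1 came next. Of the 12, it alone had a lower mean summit pileup after tunicamycin than after DMSO (log2 ratio -0.18, against 0.21 to 2.11 in the other 11). Pileups at the region downstream of HERPUD1 overlapped between the groups, at 39 and 37 after DMSO against 29 and 38 after tunicamycin. The lower mean there came from tunicamycin replicate 1. A pair of regions on chromosome 19, at 13056374 to 13056839 and 13056934 to 13057189, lay side by side, with backgrounds of 0.902 and 1.05 after DMSO and 1.96 and 2.27 after tunicamycin at the former. The genes at these places were not assigned here.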
